A study of Rattus norvegicus with 6 samples.

Results

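The genes described here are the ligands and receptors of the tumor necrosis factor (TNF) superfamily in the rat lung after bleomycin (BLM). They were taken by name from the count table: every symbol that starts with Tnfsf or Tnfrsf, together with Tnf, Lta, Ltb, Fas, Faslg, Cd27, Cd40, Cd40lg and Ltbr. The rule gave 34 of the 16383 genes with values, 14 ligands and 20 receptors, and the rule itself uses no expression value. Neither Tnfsf11 (RANKL, the ligand of Tnfrsf11a) nor Tnfrsf10b (a receptor of Tnfsf10) was among these symbols, so nothing can be said of their levels. Single cells were profiled from digested lungs of 3 BLM-treated and 3 control Sprague Dawley rats aged 8 to 10 weeks. BLM-treated rats received BLM into the trachea at a single dose of 5 mg/kg, and control rats received the same volume of saline by the same route. All lungs were taken on day 28. BLM is a cytotoxic drug that injures the lung epithelium and is widely used to model fibrosis in rodents.

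Ligands of this superfamily are trimeric proteins, made on the cell surface and often shed from it, and each binds 1 or a few of the receptors. Receptors with a death domain, such as Fas and Tnfrsf1a, can start cell death or NF-kB signalling, and the other signalling receptors recruit TRAF adaptors and lead mainly to NF-kB. Soluble receptors such as Tnfrsf11b (osteoprotegerin) hold a ligand away from its receptor, and in the lung the family is known above all for the crosstalk of lymphocytes, macrophages and stromal cells.

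Unique molecular identifiers (UMIs) each stand for 1 captured mRNA molecule. A total of 33444381 were counted in 15009 cells from BLM-treated lungs, and 23608949 in 10538 cells from control lungs. Median depth per rat ranged over 1253 to 1565 UMIs a cell after BLM and over 1066 to 1840 in controls. The cells were clustered without the 34 genes, and 28 of 29 clusters were named from marker lists. A class name such as alveolar macrophage or endothelial below means cells that are alveolar macrophage-like or endothelial-like by those markers. The remaining cluster, led by Il2ra and Gata3 with Il17a among its first genes, was given no cell type and is called the Il2ra-led cluster. Of 239 lymphatic endothelial cells, 188 came from BLM-treated replicate 2, and hemoglobin genes were among the leading genes of that cluster. In a finer clustering (Leiden resolution 2.0) the lymphatic endothelial cluster had 105 cells, 67 of them from that rat. A separate erythroid cluster then had 152 cells, 138 of them from that rat. Levels of the lymphatic endothelial class may thus include erythroid cells, above all in BLM-treated replicate 2. Of 25232 barcodes, 314 occurred in more than 1 rat, and they were counted as separate cells. Levels are given as CPM, the UMIs of a gene per 1000000 UMIs of the same class and rat. Classes were ranked by mean level only where at least 3 rats had 10 or more cells, which left out alveolar type 1 (AT1) cells. With 3 rats a group, p-values measure only the spread between these 6 animals.

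The makeup of the suspension differed between the groups, and every whole-lung value below carries this difference. Alveolar macrophages made up 14.7% to 16.2% of the cells of BLM-treated rats and 30.6% to 37.8% of those of control rats. Endothelial cells made up 9.04% to 15.9% of the cells of BLM-treated rats and 0.801% to 3.28% of those of control rats. Fibroblasts made up 4.43% to 9.50% in BLM-treated rats and 0.0890% to 0.631% in control rats, which is 47 control fibroblasts in all. In sums over all captured cells of a rat, called whole-lung sums here, fewer cells of a type and less RNA per cell cannot be told apart.

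Tnfrsf12a (Fn14, the receptor of TWEAK) and Tnfrsf8 (CD30) were called both in alveolar macrophages and in whole-lung sums under every alternative set in advance. Their promoters are shown because the pair went opposite ways there, Tnfrsf12a higher and Tnfrsf8 lower in BLM-treated rats. RefSeq promoters (assembly GRCr8, 250 bases before to 50 after the start of the gene) were on hand for 26 of the 34 genes. The promoter of Tnfrsf12a lies at chr10:13213599-13213898 on the minus strand and that of Tnfrsf8 at chr5:162451571-162451870 on the minus strand. Capitals mark matches on either strand to GGGCGG (the GC box bound by Sp1 family factors), to TGANTCA (the AP-1 site) and to the kappa B consensus of NF-kB.
Tnfrsf12a: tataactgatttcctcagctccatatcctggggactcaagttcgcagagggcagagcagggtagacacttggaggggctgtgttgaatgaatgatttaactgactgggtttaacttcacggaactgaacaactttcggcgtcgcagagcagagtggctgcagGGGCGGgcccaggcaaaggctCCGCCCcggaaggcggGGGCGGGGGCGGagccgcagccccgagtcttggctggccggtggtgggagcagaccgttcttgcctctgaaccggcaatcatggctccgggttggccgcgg
Tnfrsf8: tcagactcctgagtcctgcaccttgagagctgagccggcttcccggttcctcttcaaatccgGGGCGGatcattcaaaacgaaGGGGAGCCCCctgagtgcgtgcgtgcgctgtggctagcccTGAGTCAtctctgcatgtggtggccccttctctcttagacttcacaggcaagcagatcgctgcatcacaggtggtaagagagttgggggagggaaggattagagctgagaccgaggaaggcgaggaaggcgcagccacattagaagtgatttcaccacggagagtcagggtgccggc
All capitals in the Tnfrsf12a promoter are GC boxes. The Tnfrsf8 promoter held a GC box, a kappa B match and an AP-1 match in that order, none of which overlap. GGGCGG was found in 15 of the 26 promoters (57.7%), against 33.1% of all 33469 RefSeq promoters of the same length. The kappa B consensus was found in 4 (15.4%, Lta, Ltb, Tnfsf14 and Tnfrsf8), against 4.18% of all promoters. TGANTCA was found in 3 (11.5%, Fas, Tnfrsf1b and Tnfrsf8), against 7.33%, and TATAAA in 5 (19.2%), against 14.2%. A match is a run of letters and was not tested for binding.

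Sources of ligands differed strongly by class. Tnfsf13 (APRIL, a ligand for B cell and plasma cell receptors) had its highest mean level in alveolar macrophages, where the 6 rats lay between 714 and 942 CPM. Cycling cells of the proliferating class followed at a mean of 789 CPM and overlapped with alveolar macrophages, and monocytes had a mean of 651 CPM. Plasmacytoid dendritic cells were lowest of the classes with all 6 rats, at a mean of 3.07 CPM. Tnfsf13 lies next to Tnfsf12 in the rat genome, and both overlap the gene Eif4a1l. The neighbouring receptor genes Tnfrsf8 and Tnfrsf1b both overlap the gene LOC103692519. How the authors' counting treated overlapping genes is not given in the sources used here.

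Tnfsf12 (TWEAK, the ligand of Tnfrsf12a) was spread over macrophages and stroma. Its mean was 380 CPM in interstitial macrophages and 312 CPM in smooth muscle cells or pericytes. In the lymphatic endothelial class, which may include erythroid cells, the mean was 252 CPM. These classes overlapped between rats, and the interstitial macrophages exceeded the smooth muscle cells or pericytes in 3 of 6 rats. T cells were lowest of the classes with all 6 rats, at a mean of 8.89 CPM.

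Faslg (Fas ligand, used by cytotoxic lymphocytes to kill) was held by NK cells and, at a lower level, T cells. NK cells had 478, 594 and 733 CPM in BLM-treated replicates 1 to 3, against 590, 332 and 556 CPM in control replicates 1 to 3. All 6 rats had more Faslg in NK cells than in T cells, where the mean was 106 CPM, and the rats of the 2 groups overlapped. Neutrophils had 0 UMIs of Faslg in every rat. Tnfsf10 (TRAIL, a ligand of death receptors) was led by endothelial cells at a mean of 259 CPM, above mesothelial cells (mean 40.0 CPM) in 6 of 6 rats with no overlap. Tnfsf9 (4-1BBL, which costimulates T cells through Tnfrsf9) was highest on average in interstitial macrophages (94.2 CPM). There it had 84.1, 59.9 and 76.6 CPM in BLM-treated rats, against 86.0, 13.7 and 245 CPM in control rats, a wide spread among controls.

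The other ligands were at lower counts. Cd40lg (CD40 ligand of helper T cells) was a T cell gene, with a mean of 188 CPM in T cells and 21.0 CPM in the Il2ra-led cluster. Tnfsf8 (CD30 ligand, the partner of Tnfrsf8) also had its highest mean in T cells, at 78.2 CPM. Tnfsf13b (BAFF, a survival factor of B cells) had its highest mean in fibroblasts (61.7 CPM), a value set by few control cells, since BLM-treated rats averaged 30.3 CPM there. Lta (lymphotoxin alpha) was highest in the Il2ra-led cluster, at a mean of 79.5 CPM against 17.3 CPM in T cells, and the ranges of these classes did not overlap. Only 30 UMIs of Tnf and 27 of Ltb were counted in all 25547 cells. Alveolar macrophages, which had Tnf in all 6 rats at a mean of 1.28 CPM, held 15 of the 18 Tnf UMIs of BLM-treated rats and 8 of the 12 of control rats. Those of Ltb were spread, and no class held more than 38.9% of them in BLM-treated rats or 33.3% in control rats. Tnfsf14 (LIGHT) and Tnfsf18 (GITR ligand) each had 102 UMIs and Tnfsf15 (TL1A) had 144.

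**Figure D1:**
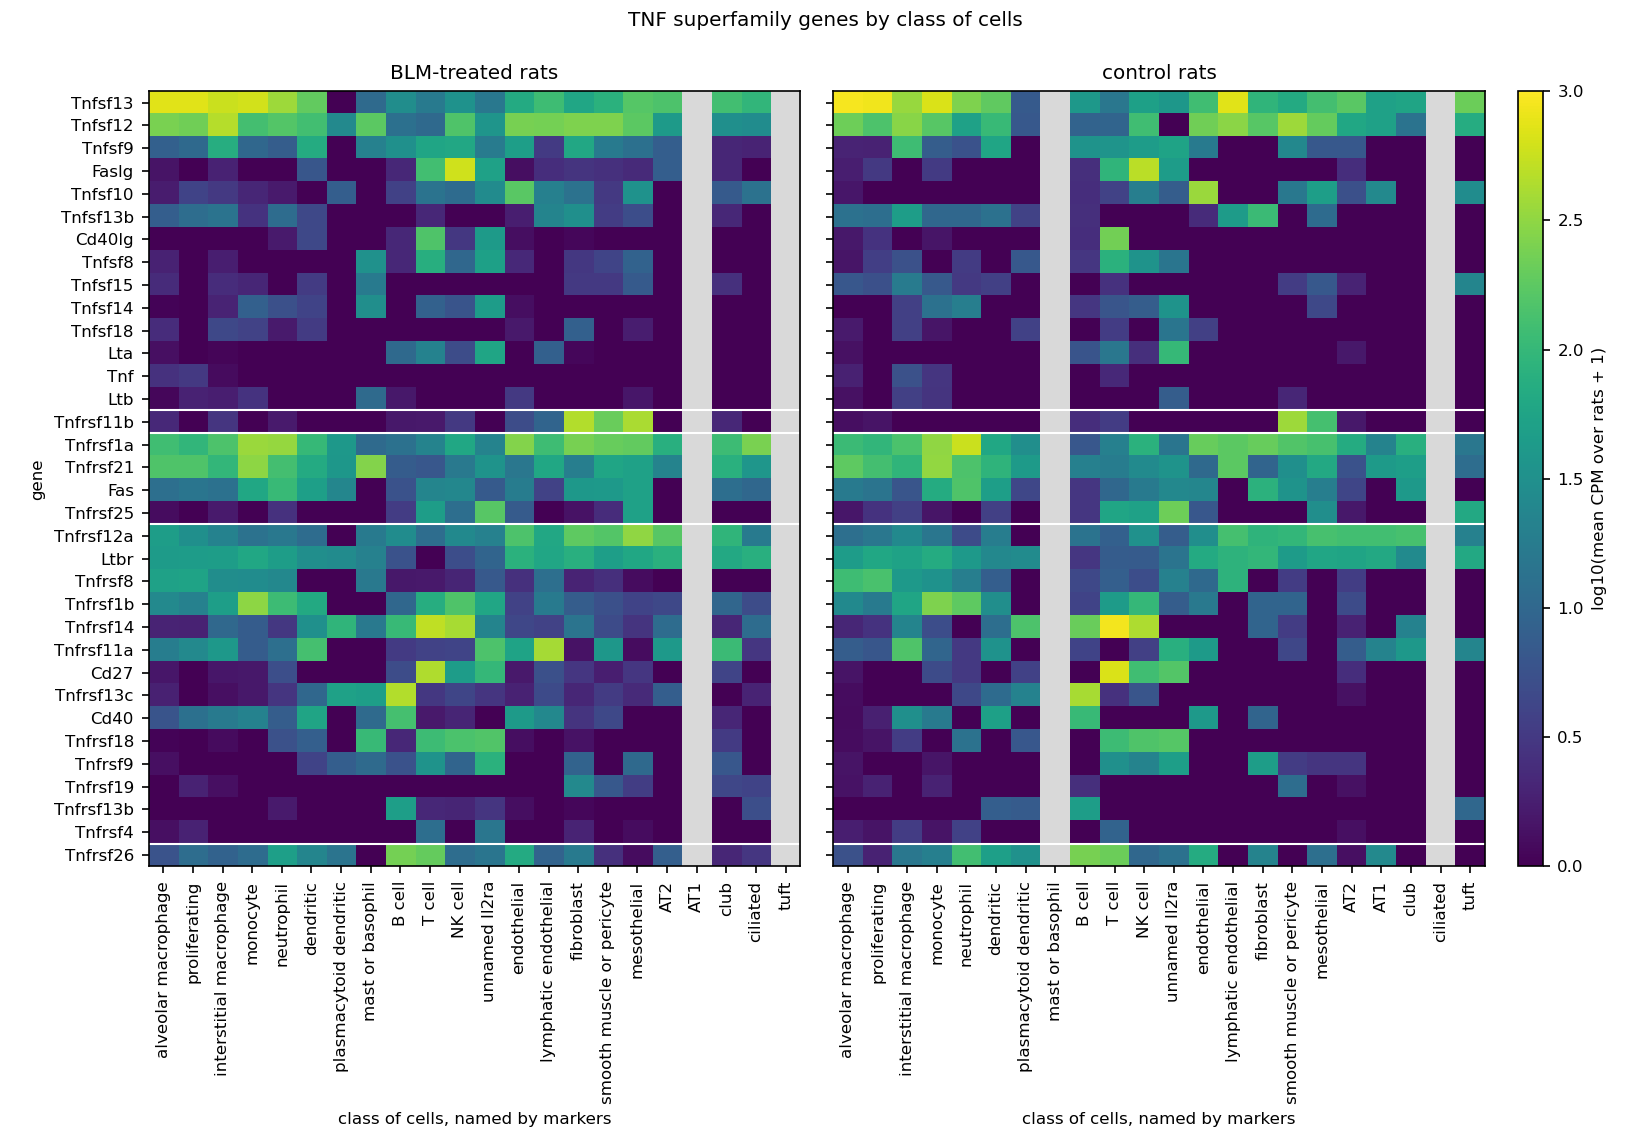
Mean level of the 34 genes (rows, ligands on top, then the soluble receptor, death domain receptors, TRAF-binding receptors and Tnfrsf26) in each class of cells (columns), as log10 of the mean CPM over rats plus 1, for BLM-treated rats (left) and control rats (right). Only rats with at least 10 cells of a class enter the mean, and grey marks classes with no such rat. Tnfsf13 is bright in macrophages, monocytes and cycling cells, Faslg in NK cells, Cd27 and Cd40lg in T cells, Tnfrsf13c in B cells and Tnfrsf11b in stroma, and Tnfrsf11b of control fibroblasts is dark.

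Receptors divided into lymphocyte, myeloid and stromal sets. Cd27 (costimulatory receptor of T cells) had a mean of 557 CPM in T cells and was higher there than in any other class in 6 of 6 rats, without overlap. Tnfrsf14 (HVEM, the receptor of LIGHT) had 554, 608 and 384 CPM in T cells of BLM-treated rats, against 768, 968 and 910 CPM in those of control rats. The rats of the 2 groups did not overlap, but this difference did not pass the test (log2 fold change -0.72, SE 0.180, adjusted p = 0.0996, edgeR with Benjamini-Hochberg adjustment). NK cells followed at a mean of 414 CPM. Tnfrsf13c (BAFF receptor), Tnfrsf13b (TACI) and Cd40 (the B cell and antigen-presenting cell receptor for CD40 ligand) were led by B cells, at means of 427, 46.4 and 117 CPM, and none of the 3 overlapped with the next class. Tnfrsf26, a mouse and rat receptor, was highest in B cells (238 CPM) and T cells (202 CPM), which overlapped. The Il2ra-led cluster had the highest mean of Tnfrsf25 (death receptor 3, 191 CPM), Tnfrsf18 (GITR, 156 CPM) and Tnfrsf9 (4-1BB, 64.6 CPM), and for each of them the range overlapped with that of the next class. Tnfrsf4 (OX40) had 47 UMIs in all cells, and its highest mean was 9.58 CPM, in T cells.

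Both receptors of TNF had their highest mean in a myeloid class. Tnfrsf1b (TNF receptor 2) had 324, 307 and 296 CPM in monocytes of BLM-treated rats, against 255, 314 and 227 CPM in those of control rats, so that the groups overlapped. It was higher in monocytes than in neutrophils in 6 of 6 rats. Tnfrsf21 (death receptor 6) had 294, 297 and 324 CPM in monocytes of BLM-treated rats, against 336, 259 and 378 CPM in those of control rats, again with overlap. Tnfrsf1a (TNF receptor 1) was broad, from a mean of 453 CPM in neutrophils and 334 CPM in monocytes down to 8.82 CPM in B cells, the lowest of the classes with all 6 rats. Fas had its highest mean in neutrophils, at 127 CPM, and overlapped with monocytes at 64.7 CPM.

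In stroma and epithelium, Ltbr (lymphotoxin beta receptor) had similar means in several classes. Its mean was 85.2 CPM in fibroblasts, 76.6 CPM in ciliated cells and 73.8 CPM in endothelial cells. Fibroblasts of BLM-treated rats had 80.8, 67.8 and 85.7 CPM, and those of the 2 control rats with at least 10 fibroblasts had 75.3 and 116 CPM, on 3 and 7 UMIs. T cells were lowest for Ltbr at 3.21 CPM. Tnfrsf19 (TROY) had 103 UMIs in all cells and its highest mean, 14.9 CPM, in fibroblasts. Over all 34 genes, the leading class lay above the next one without overlap of rats for 8 genes and in every shared rat for 13. The 13 include Tnfsf15, whose leading class (tuft cells) shared no rat with the next one, so that nothing was compared there. Its lowest and median rat had 0 CPM in tuft cells and its highest 67.0 CPM. The tuft cluster also had Sftpa1 and Sftpc, markers of alveolar type 2 cells, among its leading genes.

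The whole-lung sums were compared first, as the level over all cells captured from a rat, not that of an intact lung. Of 30 members that passed the filter on low counts, 6 were higher and 4 lower in BLM-treated rats (edgeR, quasi-likelihood fit, Benjamini-Hochberg adjusted p under 0.05). This is 33.3% of the members tested, against 17.4% of all 13346 genes tested (11.1% higher and 6.33% lower). The median log2 fold change was 0.13 over the members and -0.01 over all genes. Higher were the decoy Tnfrsf11b, the receptors Tnfrsf11a, Tnfrsf12a and Cd40, and the ligands Tnfsf9 and Tnfsf10. Lower were the receptors Tnfrsf8 and Tnfrsf21 and the ligands Tnfsf13 and Tnfsf15.

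Tnfrsf12a had 70.3, 79.9 and 97.3 CPM in whole-lung sums of BLM-treated rats, against 28.4, 33.4 and 31.0 CPM in control rats. Every BLM-treated rat lay above every control rat, with a log2 fold change of 1.37 (SE 0.137, adjusted p = 0.00157, edgeR). Tnfrsf8 had 18.7, 19.3 and 25.8 CPM in BLM-treated rats, against 67.7, 63.7 and 78.1 CPM in control rats. The groups stood far apart, with a log2 fold change of -1.78 (SE 0.167, adjusted p = 0.00142, edgeR). Tnfrsf11b, which binds RANKL and TRAIL, had 34.6, 123 and 141 CPM in BLM-treated rats, against 6.73, 18.1 and 11.6 CPM in control rats. BLM-treated replicate 1 was the lowest of its group and still above all controls (log2 fold change 3.03, SE 0.537, adjusted p = 0.00939, edgeR). Tnfrsf11a (RANK, the receptor of RANKL) had 28.3, 32.8 and 20.8 CPM in BLM-treated rats, against 6.73, 10.1 and 11.7 CPM in control rats. It was higher without overlap (log2 fold change 1.47, SE 0.282, adjusted p = 0.0123, edgeR). These 4 whole-lung calls held under every other fit that was set in advance.

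Each of the other 6 whole-lung calls ended under at least 1 alternative. Tnfsf10 had 20.2, 14.0 and 32.5 CPM in BLM-treated rats, against 5.54, 10.6 and 6.74 CPM in control rats (log2 fold change 1.52, SE 0.338, adjusted p = 0.0208, edgeR). Tnfsf9 had 37.4, 33.3 and 16.5 CPM in BLM-treated rats, against 8.05, 10.4 and 7.56 CPM in control rats (log2 fold change 1.74, SE 0.326, adjusted p = 0.0116, edgeR). In both the groups were apart. Tnfsf10 did not pass without control replicate 1 (adjusted p = 0.0673, edgeR) or 3 (0.0722), and Tnfsf9 did not pass without control replicate 3 (0.0501). Tnfsf13 had 405, 382 and 345 CPM in BLM-treated rats, against 638, 468 and 701 CPM in control rats (log2 fold change -0.73, SE 0.207, adjusted p = 0.0473, edgeR). Tnfrsf21 had 96.0, 87.7 and 82.2 CPM in BLM-treated rats, against 150, 108 and 141 CPM in control rats (log2 fold change -0.64, SE 0.174, adjusted p = 0.0418, edgeR). Control replicate 2 was the lowest control for both genes. Leaving out any one rat but control replicate 2 ended both calls (adjusted p from 0.0888 to 0.145 for Tnfsf13 and from 0.0701 to 0.145 for Tnfrsf21, edgeR), as did fitting without the filter on low counts, and Tnfsf13 also did not pass with RLE scaling (0.0516). Cd40, at 14.2 ± 3.17 CPM in BLM-treated rats and 6.27 ± 1.08 CPM in control rats (SD, n = 3 each), was higher (adjusted p = 0.0172, edgeR). It did not pass without control replicate 1 (0.0667) or 3 (0.0645). Tnfsf15, at 1.49 ± 0.569 CPM in BLM-treated rats and 4.17 ± 1.27 CPM in control rats (SD, n = 3 each), was lower (adjusted p = 0.0428, edgeR). Its call ended with the highest doublet scores removed (0.0564) and without any one rat but BLM-treated replicate 2 (0.0582 to 0.151). Cd40 and Tnfsf15 are named after their values were seen, being under 20 CPM.

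**Figure D2:**
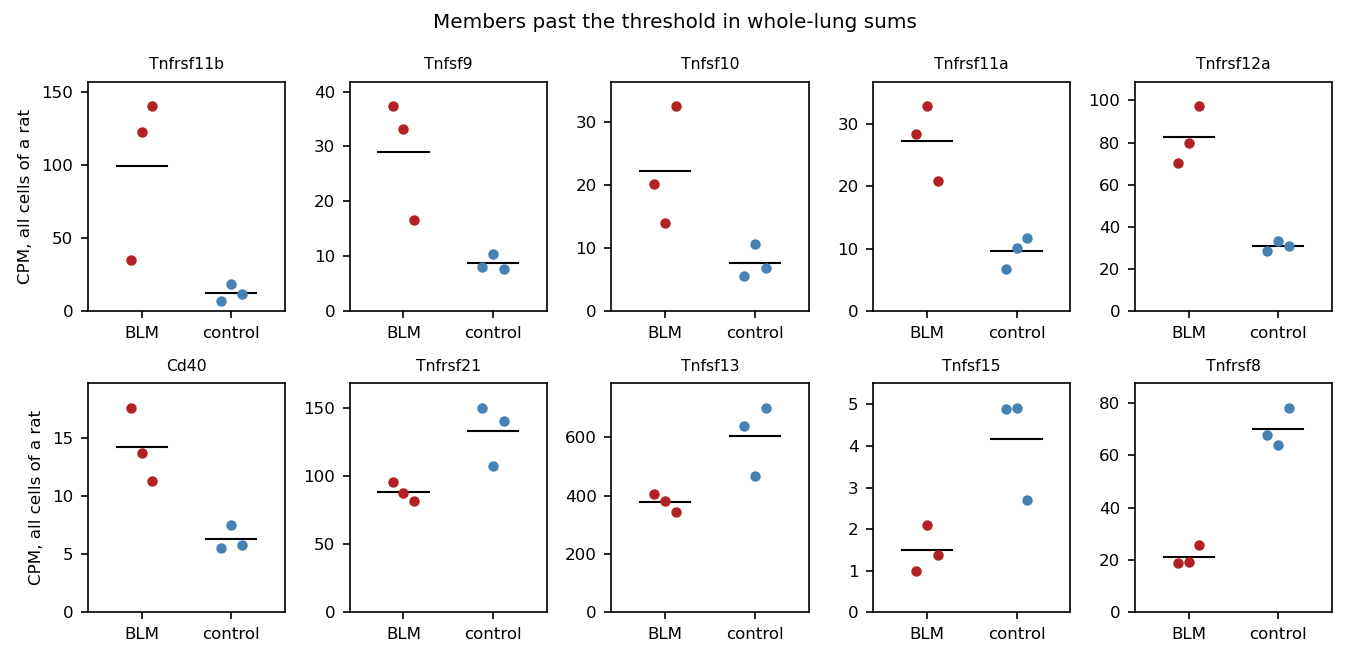
CPM in the sum of all cells of a rat for the 10 members past the threshold, BLM-treated rats on the left (red) and control rats on the right (blue) of each panel, 1 point for each rat and a line at the mean. Each vertical axis starts at 0. No BLM-treated rat lies within the range of the control rats in any panel.

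The classes that held the UMIs of a gene shifted with the makeup of the suspension. Of the UMIs of Tnfsf13, 54.3% came from alveolar macrophages and 22.2% from interstitial macrophages in BLM-treated rats, and 77.4% from alveolar macrophages in control rats. Of those of Tnfsf12, interstitial macrophages held 29.5% and alveolar macrophages 29.1% in BLM-treated rats, and alveolar macrophages held 71.6% in control rats. Tnfrsf12a had its UMIs in fibroblasts (22.7%), mesothelial cells (22.6%), alveolar macrophages (16.1%) and endothelial cells (15.4%) of BLM-treated rats, and in alveolar type 2 (AT2) cells (43.8%) and alveolar macrophages (21.4%) of control rats. The ligand Tnfsf12 and its receptor Tnfrsf12a were thus both found in many classes of both groups.

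Tnfrsf11b was a stromal gene in both groups, with a different class in the lead. Fibroblasts held 60.3% and mesothelial cells 30.9% of its UMIs in BLM-treated rats, and smooth muscle cells or pericytes held 77.5% in control rats. Tnfrsf8 stayed with alveolar macrophages, at 67.9% of its UMIs in BLM-treated rats and 83.0% in control rats. Tnfsf10 stayed with endothelial cells, at 69.4% of its UMIs in BLM-treated rats and 65.5% in control rats. For Cd40, B cells held 30.8% and endothelial cells 25.4% in BLM-treated rats, and B cells held 46.8% and monocytes 18.4% in control rats.

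**Figure D3:**
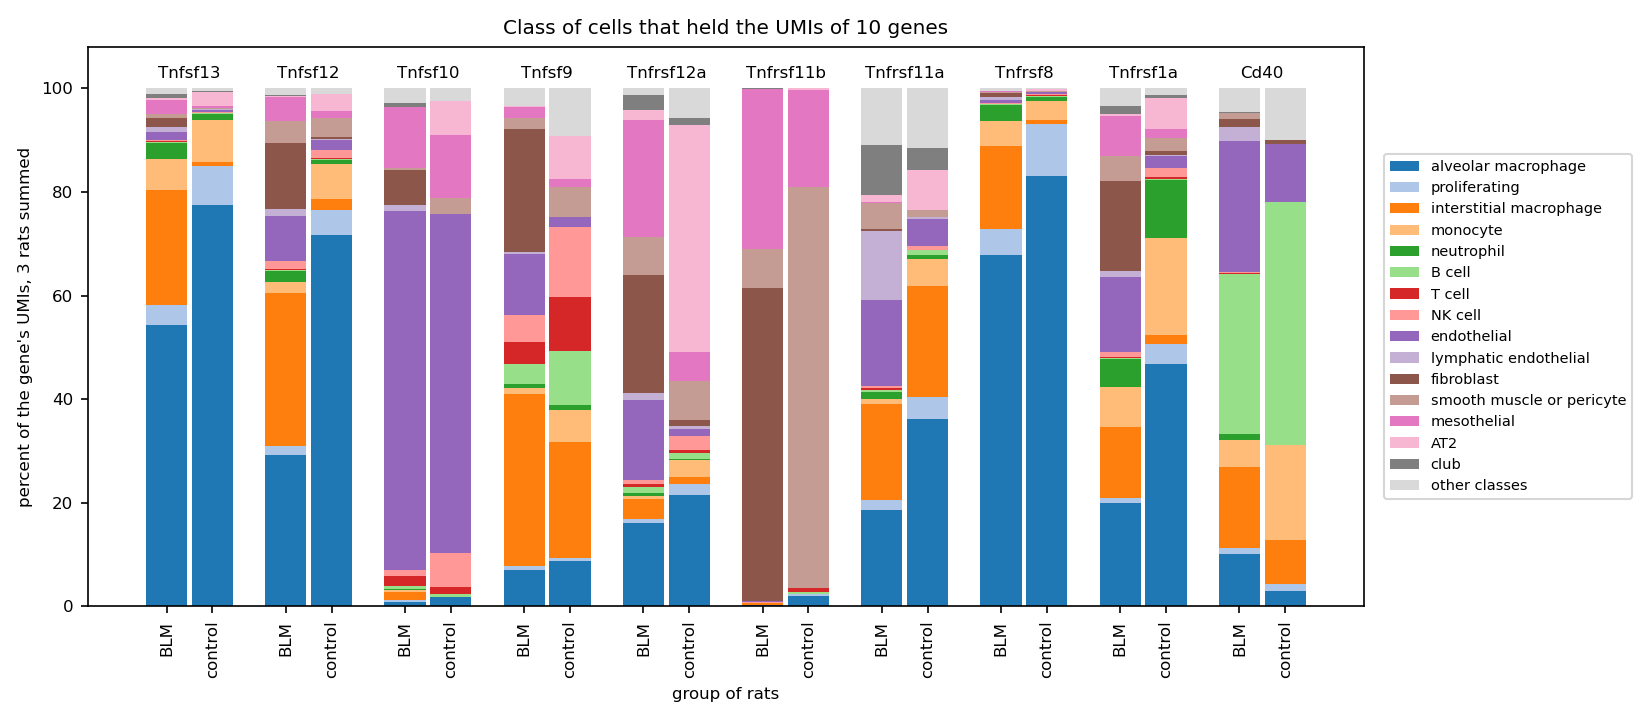
Share of the UMIs of 10 members that came from each class (vertical axis, percent, 3 rats of a group summed), BLM-treated left of control for each gene. Fibroblasts (brown) take 60.3% of Tnfrsf11b in BLM-treated rats, where smooth muscle cells or pericytes take 77.5% in control rats, and endothelial cells (purple) take most of Tnfsf10 in both.

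Comparisons within classes asked whether a member differed per UMI of the same kind of cell. A fit was made for 17 classes, and 128 pairs of a member and a class passed the filter, covering 27 members in 16 classes. Of these, 10 were higher and 7 lower in BLM-treated rats, 13.3% against 5.46% of all gene and class pairs tested (2.99% higher and 2.46% lower). The 17 calls belonged to 11 members and 8 classes. The 7 members tested in no class (Lta, Ltb, Tnf, Tnfrsf19, Tnfrsf4, Tnfsf14 and Tnfsf18) had too few UMIs. In the 9 classes without a call, among them T, B and NK cells, monocytes and AT2 cells, edgeR called 0 of the 50 pairs tested, of which 9 had an unadjusted p under 0.05, and DESeq2 called 0. The share of all genes called there was 1.29% in AT2 cells, 0.49% in B cells, 0.0462% in NK cells, 0.346% in T cells, 0.081% in club cells, 0.0468% in dendritic cells, 0.666% in monocytes, 0.186% in the Il2ra-led cluster and 0.63% in plasmacytoid dendritic cells, where no member passed the filter.

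**Figure D4:**
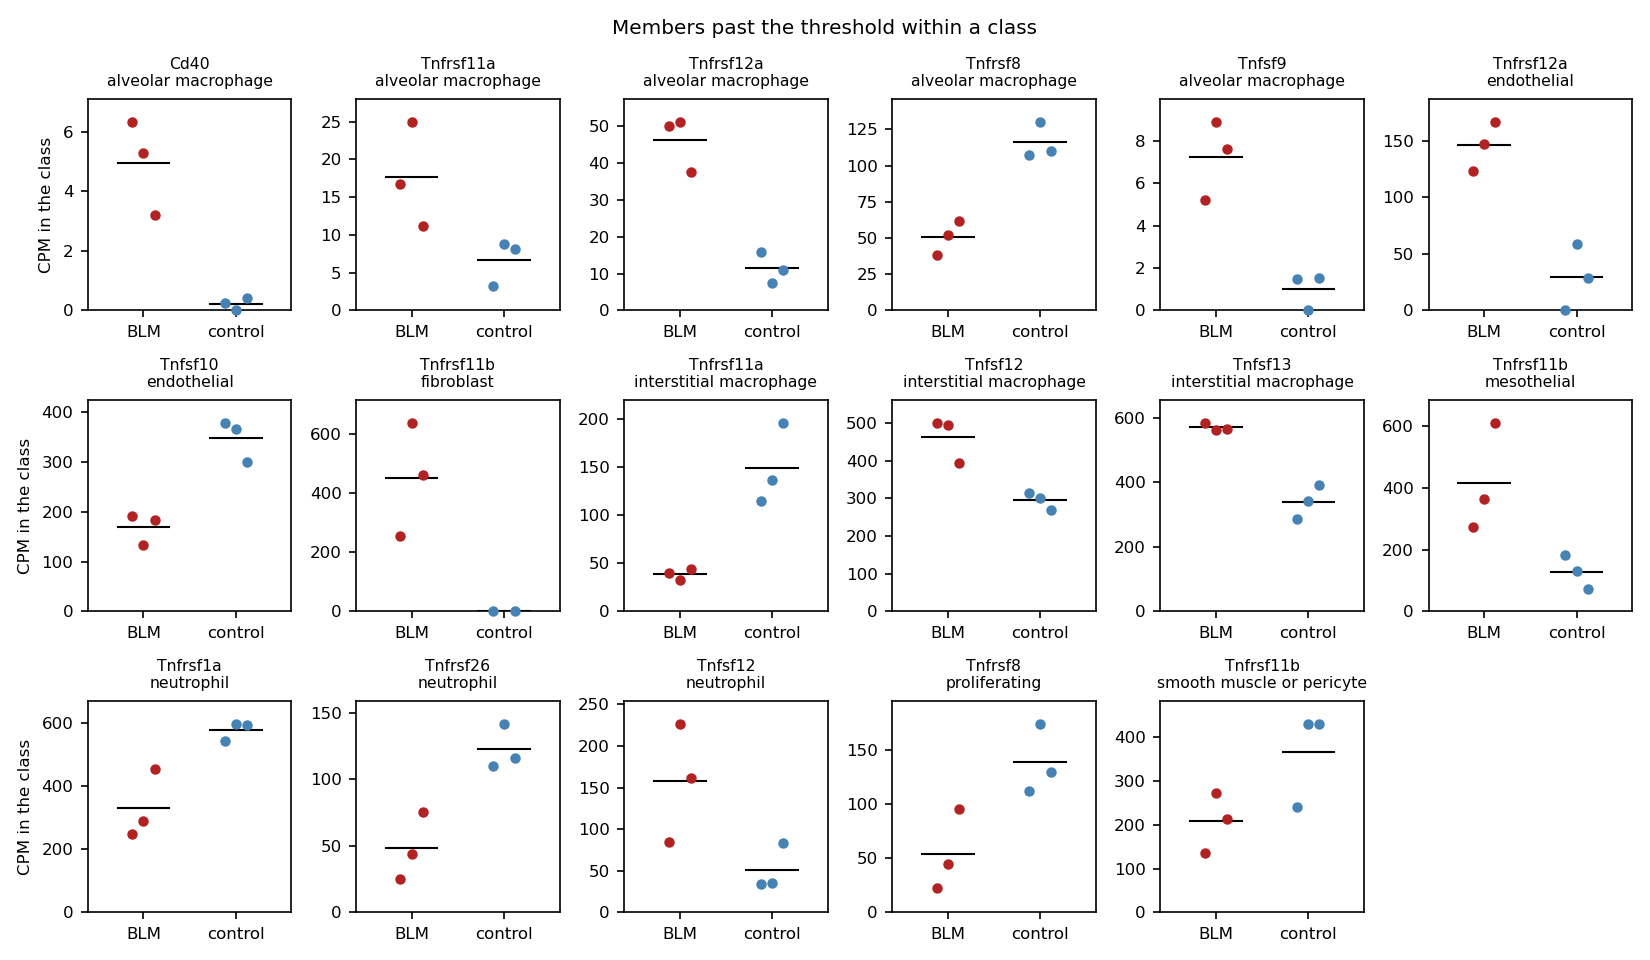
CPM of each member past the threshold in its class, BLM-treated rats on the left (red) and control rats on the right (blue) of each panel, 1 point for each rat with at least 10 cells and a line at the mean. Each vertical axis starts at 0. The groups overlap only for Tnfrsf11b in smooth muscle cells or pericytes, and the 2 control points of Tnfrsf11b in fibroblasts are at 0.

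Alveolar macrophages had the most calls, 4 higher and 1 lower of 15 members tested (33.3%, against 11.2% of all 9270 genes tested, 6.6% higher and 4.64% lower). The median log2 fold change was -0.04 over the members and -0.01 over all genes. Tnfrsf8 had 38.4, 52.0 and 62.0 CPM in BLM-treated rats, against 108, 130.4 and 110.2 CPM in control rats. The groups were far apart, and the log2 fold change was -1.21 (SE 0.159, adjusted p = 0.00105, edgeR). Tnfrsf12a had 49.99, 51.2 and 37.6 CPM in BLM-treated rats, against 15.8, 7.47 and 11.01 CPM in control rats. All BLM-treated rats were above all controls, with a log2 fold change of 1.92 (SE 0.242, adjusted p = 0.000812, edgeR). Tnfsf13, the most counted member, had 759, 730 and 714 CPM in BLM-treated rats, against 929, 820 and 942 CPM in control rats. These groups did not overlap either, but the difference did not pass (log2 fold change -0.32, SE 0.128, adjusted p = 0.152, edgeR).

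Cd40, Tnfsf9 and Tnfrsf11a were called in alveolar macrophages at under 20 CPM and are named after their values were seen. Cd40 had 17, 22 and 8 UMIs in BLM-treated replicates 1 to 3, against 1, 0 and 3 in control replicates 1 to 3. This is 4.94 ± 1.60 CPM in BLM-treated rats and 0.221 ± 0.210 CPM in control rats (SD, n = 3 each, log2 fold change 3.83, SE 0.587, adjusted p = 0.00256, edgeR), and without control replicate 3 the log2 fold change was 4.52. Tnfsf9 stood at 7.24 ± 1.86 CPM in BLM-treated rats and 1.003 ± 0.869 CPM in control rats (adjusted p = 0.00882, edgeR), and its call ended without BLM-treated replicate 2 (adjusted p = 0.0588). Tnfrsf11a stood at 17.7 ± 6.95 CPM in BLM-treated rats and 6.70 ± 3.06 CPM in control rats (adjusted p = 0.0444, edgeR), and its call ended without BLM-treated replicate 1 (adjusted p = 0.102), BLM-treated replicate 2 (0.212) or control replicate 1 (0.140).

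Different clusters held most alveolar macrophages in the 2 groups. Cluster 2 (led by Mrc1 and Clec7a) had 1659 cells of BLM-treated rats and 292 of control rats. Cluster 0 (Pla2g2d, Ccl6) had 467 cells of BLM-treated rats and 2557 of control rats. Cluster 8 (Pla2g2d, Krt79, with a median of 978 UMIs per cell) had 184 cells of BLM-treated rats and 923 of control rats. Tnfrsf8 was lower in BLM-treated rats within each of them, with log2 fold changes of -0.86 in cluster 2, -0.87 in cluster 0 and -4.25 in cluster 8 (adjusted p = 0.0197, 0.00819 and 0.00168, edgeR). In cluster 0 it had 49.5, 57.8 and 75.8 CPM in BLM-treated rats, against 109, 115 and 109.8 CPM in control rats, without overlap. In cluster 2 the groups overlapped, and in cluster 8 the 184 cells of BLM-treated rats held 1 UMI of Tnfrsf8. Tnfrsf12a was higher by 0.82 in cluster 0 (adjusted p = 0.346, edgeR) and 0.85 in cluster 2 (adjusted p = 0.0504), and neither passed. In cluster 2 it had 54.8, 54.0 and 50.7 CPM in BLM-treated rats, against 28.3, 0 and 30.6 CPM in control rats, of which control replicate 2 had 14 cells. In cluster 8 it had 0 UMIs in BLM-treated rats, against 28.9, 6.42 and 8.23 CPM in control rats. Tnfsf9 did not pass in cluster 2 (log2 fold change 0.40, adjusted p = 0.762, edgeR), where Tnfrsf11a was higher (1.71, adjusted p = 0.0431). Neither gene was tested in cluster 0 or cluster 8, and Cd40 was tested in none of these clusters. The marker list of AT2 cells summed to 119 to 159 CPM in alveolar macrophages of BLM-treated rats and 233 to 755 CPM in those of control rats. That of fibroblasts summed to 105 to 165 CPM in BLM-treated rats and 64.1 to 97.8 CPM in control rats. That of interstitial macrophages, with 12 of 13 markers at a higher mean in BLM-treated rats, summed to 5443 to 7779 CPM in BLM-treated rats and 2960 to 7347 CPM in control rats. The part of these lists in the results was not tested.

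The proliferating class also held alveolar macrophage markers, whose list summed to 7409 to 7536 CPM there in BLM-treated rats and 6649 to 7235 CPM in control rats. Tnfrsf8 was lower in it, at 22.5, 44.3 and 95.3 CPM in BLM-treated rats, against 112, 174 and 129 CPM in control rats. BLM-treated replicate 3 came near the controls but did not reach them (log2 fold change -1.40, SE 0.321, adjusted p = 0.00404, edgeR). It was the only call among 6 members tested (16.7%, against 6.24% of all genes tested, 2.6% lower). Without BLM-treated replicate 2 it did not pass (adjusted p = 0.0947, edgeR). Tnfrsf8 had negative log2 fold changes in all 4 classes in which it was tested, with those of interstitial macrophages (-0.36) and monocytes (-0.36) not passing.

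Interstitial macrophages had 2 members higher and 1 lower of 11 tested (27.3%, against 16.8% of all 6014 genes tested, 8.76% higher and 8.0% lower). The median log2 fold change was -0.21 over the members and 0.02 over all genes. Tnfsf13 had 586, 564 and 565 CPM in BLM-treated rats, against 287, 341 and 391.9 CPM in control rats (log2 fold change 0.88, SE 0.208, adjusted p = 0.00879, edgeR). Tnfsf12 had 502, 495 and 395 CPM in BLM-treated rats, against 315, 300.5 and 269 CPM in control rats (log2 fold change 0.79, SE 0.216, adjusted p = 0.0197, edgeR). Tnfrsf11a had 39.6, 32.7 and 43.9 CPM in BLM-treated rats, against 115, 137 and 196 CPM in control rats (log2 fold change -1.86, SE 0.296, adjusted p = 0.000652, edgeR). None of the 3 overlapped between the groups. Tnfsf13 did not pass without control replicate 1 (adjusted p = 0.0621, edgeR), and Tnfsf12 did not pass without BLM-treated replicate 1 (0.0568), control replicate 1 (0.0548) or control replicate 3 (0.0671).

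Different clusters also held the interstitial macrophages of the 2 groups. A cluster led by Apoe and Spp1 (cluster 9) had 946 cells of BLM-treated rats and 13 of control rats, and a cluster led by C1qc and C1qa (cluster 15) had 493 cells of BLM-treated rats and 179 of control rats. Within the C1q-led cluster none of the 3 passed the test. Tnfrsf11a had 157, 137.5 and 98.99 CPM there in BLM-treated rats, against 121, 142 and 232 CPM in control rats (log2 fold change -0.35, adjusted p = 0.765, edgeR). There Tnfsf12 had 286, 258 and 279 CPM in BLM-treated rats, against 318, 313 and 222 CPM in control rats (log2 fold change -0.05, adjusted p = 0.962, edgeR), and Tnfsf13 had 314, 268 and 341 CPM in BLM-treated rats, against 257, 256 and 232 CPM in control rats (log2 fold change 0.31, adjusted p = 0.679, edgeR). In the Spp1-led cluster of BLM-treated rats, Tnfrsf11a stood at only 20.7, 14.6 and 15.3 CPM, Tnfsf12 at 536, 535 and 456 CPM and Tnfsf13 at 629, 615 and 681 CPM. No test was made in that cluster, since only 1 control rat had at least 10 of its cells. The marker list of alveolar macrophages summed to 5023 to 5690 CPM in interstitial macrophages of BLM-treated rats and 1748 to 3127 CPM in those of control rats, and its part was not tested.

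**Figure D5:**
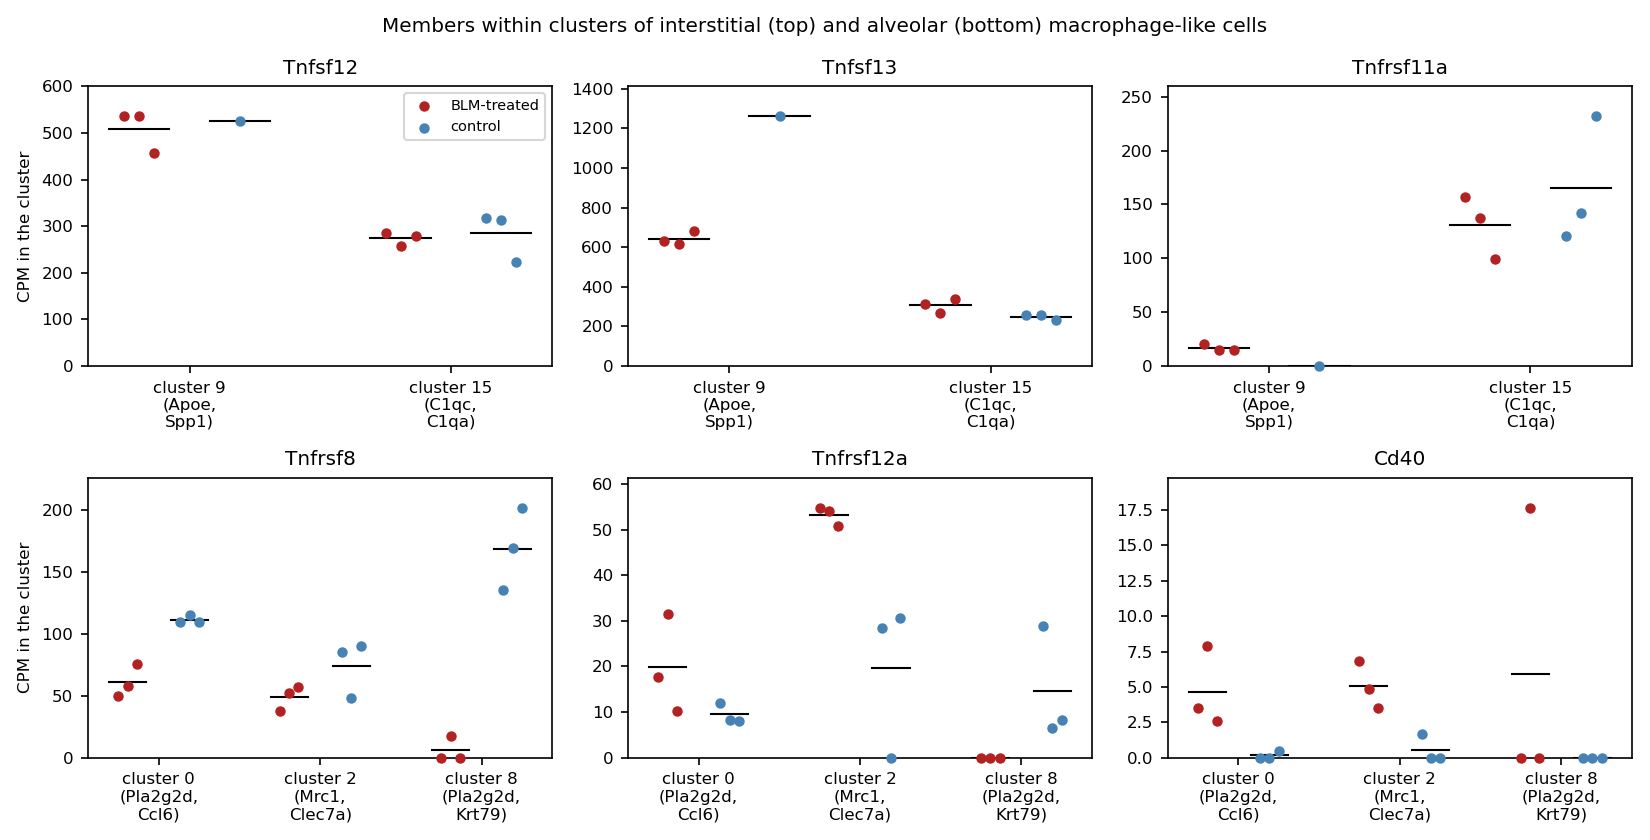
CPM of Tnfsf12, Tnfsf13 and Tnfrsf11a in the 2 clusters of interstitial macrophages (top) and of Tnfrsf8, Tnfrsf12a and Cd40 in the 3 clusters of alveolar macrophages (bottom), 1 point for each rat with at least 10 cells of the cluster, a line at the mean, BLM-treated rats (red) left of control rats (blue). The groups overlap for Tnfsf12 and Tnfrsf11a in cluster 15, whereas Tnfrsf8 is lower in BLM-treated rats in cluster 0 and cluster 8 without overlap.

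Endothelial cells had 1 member higher and 1 lower of 10 tested (20%, against 6.86% of all 6197 genes tested, 4.1% higher and 2.76% lower). The median log2 fold change was 0.35 over the members and 0.02 over all genes. Tnfsf10 had 191, 134 and 185 CPM in endothelial cells of BLM-treated rats, against 379, 367 and 300 CPM in those of control rats. It was lower without overlap (log2 fold change -0.87, SE 0.227, adjusted p = 0.0283, edgeR), while its whole-lung sum was higher in the same BLM-treated rats. Endothelial cells held 6.58% to 12.3% of all UMIs of a BLM-treated rat and 0.348% to 2.00% of those of a control rat. Without BLM-treated replicate 2 or any one of the control rats the endothelial Tnfsf10 call ended (adjusted p from 0.0761 to 0.142), and the log2 fold change was then between -0.88 and -0.74. It also ended without the filter on low counts (-0.70, adjusted p = 0.128, edgeR). In the larger endothelial cluster alone (1501 cells of BLM-treated and 192 of control rats) the log2 fold change was -0.91 (adjusted p = 0.0257, edgeR). At Leiden resolution 2.0 the endothelial cells of the 2 groups lay mostly in different clusters, of which one held 927 cells of BLM-treated and 27 of control rats and another held 276 of BLM-treated and 146 of control rats. No fit was made within those clusters.

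Tnfrsf12a had 123, 147 and 167 CPM in endothelial cells of BLM-treated rats, against 0, 58.7 and 28.8 CPM in those of control rats. It was higher without overlap (log2 fold change 2.23, SE 0.407, adjusted p = 0.00273, edgeR). The 27 endothelial cells of control replicate 1 gave 0 UMIs, which allows up to 114 CPM, and control replicates 2 and 3 rested on 4 and 7 UMIs. The call ended without control replicate 3 (adjusted p = 0.0754) and was kept in the larger endothelial cluster alone (log2 fold change 2.20, adjusted p = 0.00337, edgeR). The marker list of AT2 cells summed to 19.5 to 76.9 CPM in endothelial cells of BLM-treated rats and 440 to 501 CPM in those of control rats, and its part in both results was not tested.

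Tnfrsf12a had positive log2 fold changes in 7 of the 8 classes in which it was tested, and the exception was interstitial macrophages (-0.27). Mesothelial cells, which had its highest mean of the ranked classes, held 315, 403 and 224 CPM in BLM-treated rats, against 85.4, 185 and 125 CPM in control rats. This did not overlap and did not pass (log2 fold change 1.31, SE 0.332, adjusted p = 0.0617, edgeR). Fibroblasts stood at 176, 143 and 211 CPM in BLM-treated rats, against 75.3 and 99.7 CPM in 2 control rats (log2 fold change 1.19, adjusted p = 0.229, edgeR). AT2 cells, at 166 ± 94.6 CPM in 2 BLM-treated rats and 121 ± 25.8 CPM in 3 control rats, had a log2 fold change of 0.44 that did not pass (adjusted p = 0.652, edgeR). AT1 cells, too few to be ranked or fitted, held 34 UMIs of Tnfrsf12a in control rats (4.72%) and 8 in BLM-treated rats (0.291%). They held 0.184% to 0.972% of all UMIs of a control rat and 0.0592% to 0.116% of those of a BLM-treated rat.

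Tnfrsf11b was called in all 3 stromal classes in which it was tested, and not in the same direction. In fibroblasts it had 256, 640 and 464 CPM in BLM-treated rats, against 0 UMIs in every control rat. The 47 control fibroblasts held 107161 UMIs, so that 0 allows up to 28.0 CPM over the group, and the mean of BLM-treated rats (453 CPM) was at least 16.2-fold higher than this floor. The fit used 2 control rats, of 15 and 29 cells, and its call (adjusted p = 0.0136, edgeR) ended without either of them (adjusted p = 0.126 and 0.207). The marker list of mesothelial cells, the other main source of Tnfrsf11b in BLM-treated rats, summed to 56.0 to 369 CPM in fibroblasts of BLM-treated rats and 16.6 to 25.1 CPM in those of control rats, and its part was not tested. Tnfrsf11b was the only call among 13 members tested in fibroblasts (7.69%, against 1.22% of all 7535 genes tested, 0.65% higher). In mesothelial cells Tnfrsf11b had 274, 363 and 612 CPM in BLM-treated rats, against 182, 132 and 72.9 CPM in control rats. It was higher without overlap (log2 fold change 1.61, SE 0.362, adjusted p = 0.0371, edgeR), the only call among 8 members tested (12.5%, against 2.23% of all genes tested, 1.17% higher). This call ended without BLM-treated replicate 3 (adjusted p = 0.114, edgeR) and without any one of the control rats (adjusted p from 0.0971 to 0.170, edgeR).

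In smooth muscle cells or pericytes Tnfrsf11b had 136, 272 and 214 CPM in BLM-treated rats, against 240, 429 and 430.1 CPM in control rats. The groups overlapped, and the gene was lower in the fit (log2 fold change -0.86, SE 0.262, adjusted p = 0.0337, edgeR), the only call among 8 members tested (12.5%, against 11.3% of all genes tested, 6.2% lower). DESeq2 did not call it (adjusted p = 0.129), nor did the fits without BLM-treated replicate 1 or 3 or control replicate 2 or 3 (0.109 to 0.236). The marker list of fibroblasts summed to 2595 to 3895 CPM in this class of BLM-treated rats and 22960 to 25660 CPM in that of control rats, and in mesothelial cells to 7916 to 21010 CPM in BLM-treated rats and 22200 to 41260 CPM in control rats. A cluster with Col3a1 among its first genes (cluster 18) held 197 cells of BLM-treated and 223 of control rats in this class, and the Tagln-led cluster 13 held 670 cells of BLM-treated and 87 of control rats. In cluster 13 Tnfrsf11b was lower in BLM-treated rats (log2 fold change -1.35 with 2 control rats, adjusted p = 0.0187, edgeR), and in cluster 18 the difference did not pass (-0.67, adjusted p = 0.346). The part of the fibroblast markers was not tested.

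Within fibroblasts of BLM-treated rats Tnfrsf11b differed between clusters. The Col1a1-led cluster 10 had 318, 704 and 619 CPM, and the Mgp-led cluster 20 had 66.0, 65.5 and 33.4 CPM in the same rats. Cluster 10 held 841 fibroblasts of BLM-treated and 7 of control rats, and cluster 20 held 226 of BLM-treated and 40 of control rats. The fold over the control floor given above therefore sets mostly cluster 10 cells against mostly cluster 20 cells. The 2 control rats with at least 10 cells of cluster 20 had 0 UMIs. This gap between clusters within rats is a description, since the clusters were built from the same cells.

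Neutrophils had 1 member higher and 2 lower of 7 tested (42.9%, against 18.4% of all 3321 genes tested, 9.82% higher and 8.55% lower). The median log2 fold change was -0.69 over the members and 0.01 over all genes. At Leiden resolution 2.0 one neutrophil cluster held 398 cells of BLM-treated and 551 of control rats. Another held 353 of BLM-treated and 168 of control rats. No fit was made within those clusters, and their part in the results was not tested. Tnfrsf1a had 249, 288 and 453 CPM in BLM-treated rats, against 541, 597 and 593 CPM in control rats. It was lower without overlap (log2 fold change -0.97, SE 0.251, adjusted p = 0.0173, edgeR), and the call ended without BLM-treated replicate 1 (adjusted p = 0.0780) or 2 (0.107). Tnfrsf26 had 25.3, 43.9 and 75.5 CPM in BLM-treated rats, against 110, 142 and 116 CPM in control rats (log2 fold change -1.53, SE 0.358, adjusted p = 0.0116, edgeR). This call ended without BLM-treated replicate 2 (adjusted p = 0.0748, edgeR), and BLM-treated replicate 3 was the highest of its group for both receptors.

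Tnfsf12 had 84.5, 227 and 161 CPM in neutrophils of BLM-treated rats, against 33.8, 35.5 and 83.8 CPM in those of control rats. BLM-treated replicate 1 and control replicate 3 nearly met (log2 fold change 1.34, SE 0.402, adjusted p = 0.0314, edgeR). The call ended under DESeq2 (adjusted p = 0.0511) and without BLM-treated replicate 2 or 3 or control replicate 1 or 2 (0.0592 to 0.207). With the highest doublet scores removed the log2 fold change was 3.84, and without control replicate 3 it was 2.03. All 13 measured markers of interstitial macrophages had a higher mean in neutrophils of BLM-treated rats, with sums of 5115 to 9542 CPM in BLM-treated rats and 1030 to 2546 CPM in control rats, and their part in these results was not tested.

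Whether a class responded differently from the others was tested directly, as the BLM effect in a class minus the mean effect of the other classes with the rat as a block. This difference has a finite estimate only for a gene with UMIs in both groups of all 17 classes, which held for Tnfrsf1a and Tnfrsf21. The other members were not tested in this way. Of 34 pairs of a member and a class, 1 passed, a share near the 2.69% of all gene and class pairs. Tnfrsf1a was lower in neutrophils than its mean effect elsewhere, with a difference of -1.44 on the log2 scale (SE 0.267, adjusted p = 6.98e-05, edgeR) and 11.7% of all genes tested passed in that class. Without control replicate 3 it had no finite estimate. Its log2 fold change was positive in 9 of the 12 classes in which it was tested. None of the 17 differences of Tnfrsf21 passed in edgeR, where 4 had an unadjusted p under 0.05 and the lowest adjusted p was 0.212, in AT2 cells.

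Tnfrsf11a and Tnfrsf11b had opposite calls in different classes. The BLM effect on Tnfrsf11a in alveolar macrophages minus that in interstitial macrophages was 3.29 on the log2 scale (SE 0.433, adjusted p = 1.81e-07, edgeR, 6 rats). The effect on Tnfrsf11b in mesothelial cells minus that in smooth muscle cells or pericytes was 2.41 (SE 0.451, adjusted p = 0.00701, edgeR). The other pair, Tnfrsf11b in fibroblasts against smooth muscle cells or pericytes, is given no fitted value because control fibroblasts held 0 UMIs. The pairs were chosen after their calls were known, so that these tests describe calls already seen.

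Tnfrsf11a was also found outside macrophages. Lymphatic endothelial cells had 555, 195 and 415 CPM in BLM-treated rats, against 0 CPM in the 1 control rat with at least 10 of these cells. That rat had 10 such cells with 23090 UMIs, too few to show that the gene was absent. The value of BLM-treated replicate 2 (195 CPM) may include erythroid cells, which were not set apart in this class. All control rats together held 1 UMI of Tnfrsf11a in this class. The Il2ra-led cluster had a mean of 110 CPM over 6 rats. No test was made in lymphatic endothelial cells, and in endothelial cells (53.4 CPM in BLM-treated rats and 41.8 CPM in control rats on average) the difference did not pass (log2 fold change 0.67, adjusted p = 0.578, edgeR).

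The genes that act downstream were given by a list of 45 adaptors, kinases, NF-kB subunits and inhibitors, death effectors and shedding proteases, of which 40 were in the table. Over 354 pairs of a list gene and a class, 15 were higher and 7 lower in BLM-treated rats, a share of 6.21%, near the 5.46% of all gene and class pairs. Alveolar macrophages had 9 higher and 2 lower of 39 tested (28.2%, against 11.2% of all genes tested), with a median log2 fold change of 0.17 over the list and -0.01 over all genes. Rel, an NF-kB subunit, had 72.7, 88.8 and 74.0 CPM in alveolar macrophages of BLM-treated rats, against 20.2, 24.5 and 17.7 CPM in those of control rats (log2 fold change 1.94, SE 0.157, adjusted p = 6.17e-05, edgeR). Cflar, which blocks caspase-8 at death receptors, had 147, 192 and 118 CPM in BLM-treated rats, against 52.0, 49.6 and 44.4 CPM in control rats (log2 fold change 1.63, SE 0.188, adjusted p = 0.000495, edgeR). Nfkbib, an inhibitor of NF-kB, was higher by 1.22 (adjusted p = 0.000510, edgeR), and Bcl3, Birc3, Nfkb1, Tank, Tnip1 and Traf6 were the other genes that were higher. Adam17, the protease that sheds TNF and its receptors, was lower (log2 fold change -0.56, adjusted p = 0.00868, edgeR), as was the adaptor Traf5 (-1.27, adjusted p = 0.0123).

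In interstitial macrophages 1 list gene was higher and 4 were lower of 29 tested (17.2%, near the 16.8% of all genes tested), with a median log2 fold change of -0.45, against 0.02 over all genes. Rel was lower there, at 88.0, 130 and 192 CPM in BLM-treated rats, against 330, 300.5 and 245 CPM in control rats (log2 fold change -0.98, adjusted p = 0.0192, edgeR). Birc3, Nfkb2 and Rela were the others that were lower, and the protease Adam10 was higher (log2 fold change 2.34, adjusted p = 0.00896, edgeR). Endothelial cells had 2 higher of 26 tested (7.69%, near the 6.86% of all genes tested). One was Bcl3, a nuclear partner of NF-kB, at 261, 301 and 275 CPM in BLM-treated rats, against 114, 103 and 94.5 CPM in control rats (log2 fold change 1.59, adjusted p = 0.000924, edgeR), and the other was the adaptor Traf6. Single list genes were called in neutrophils (Birc3, lower), proliferating cells (Cflar, higher), smooth muscle cells or pericytes (Birc2, higher) and T cells (Birc3, higher). The share of the list was 4.76% in neutrophils (18.4% of all genes tested) and 7.69% in proliferating cells (6.24%). It was 5.26% in smooth muscle cells or pericytes (11.3%) and 4.0% in T cells (0.346%). The different clusters that hold the macrophages of the 2 groups apply to these values as well.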

How the data were processed

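Lung cells of 3 BLM-treated and 3 control rats were profiled on the BD Rhapsody platform. The authors deposited 1 table of raw UMI counts per cell and gene for all rats. The build mm9 is named in the processing notes of the submitters. It is a mouse build, although the samples are from rats, and how this bears on the counts was not tested. Aligner and counter: not given in the sources used here. The header was shifted by 1 field against the values, which was settled from the levels of abundant genes, and the last gene name had no values. Cell names carry the letters F and N. They were assigned to BLM-treated and control rats because the cell totals of the letters equal those stated by the study.

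All deposited cells were kept. Cells were clustered with scanpy 1.11.5 (2000 variable genes without the 34 members, 30 components, 15 neighbours, Leiden resolution 1.0) and named from marker lists. The name of the Il2ra-led cluster was withdrawn after its leading genes were seen. The automatic doublet threshold marked 99 cells (0.388%) and did not work, so the 1146 cells of highest score were removed as an alternative only.

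Raw counts were summed per rat and class with at least 10 cells and at least 2 rats a group, and fitted in edgeR 4.0.16 (R 4.3.3) with filterByExpr, TMM scaling, the quasi-likelihood test and Benjamini-Hochberg adjustment over all genes of a class at 0.05. AT2 cells had 2 BLM-treated rats, and club cells and fibroblasts had 2 control rats. Differences between classes were fitted with the rat as a block. Genes without UMIs in a group of any class were left out of the contrast with the other classes after the data were seen, because it then has no finite estimate. Each result was also computed with DESeq2 1.42.0, with RLE scaling, without the filter, with the replicate number as a block, without each rat, at other resolutions, with members kept in the clustering, on cells of at least 500 UMIs and without high doublet scores. Fits within clusters were added after the data were seen. On simulated counts of alveolar macrophages, the fit recovered 61.5% of the genes given a log2 change of 1 and 99.1% of those given 2. For interstitial macrophages these shares were 22.8% and 87.1%, and for endothelial cells 18.5% and 83%.

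Values in every rat are given for members called at 20 CPM or more in a group, and for the 5 ligands and 8 receptors with the most UMIs in their leading class. The members and lists were chosen with earlier results of these data known.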

Additional observations from a re-analysis of the deposited data

Results flagged for a closer look

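The BLM effect was compared between classes, and 3 differences passed (edgeR, Benjamini-Hochberg adjusted p under 0.05). For Tnfrsf1a the log2 effect in neutrophils minus the mean of the other classes was -1.441 (adjusted p = 6.98e-05, edgeR). In neutrophils 11.7% of all genes tested passed this contrast. The other differences were chosen because their calls were already opposite, so that passing was no independent result. For Tnfrsf11a the effect in alveolar macrophages minus that in interstitial macrophages was 3.286 (adjusted p = 1.81e-07, edgeR), although within the C1q-led cluster of interstitial macrophages its log2 fold change was -0.35 and did not pass (adjusted p = 0.765, edgeR). For Tnfrsf11b the effect in mesothelial cells minus that in smooth muscle cells or pericytes was 2.412 (adjusted p = 0.00701, edgeR).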

How the results depend on the processing

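Within classes, Cd40, Tnfrsf12a and Tnfrsf8 in alveolar macrophages and Tnfrsf11a in interstitial macrophages passed under every alternative set in advance, as did Tnfrsf11a, Tnfrsf11b, Tnfrsf12a and Tnfrsf8 in whole-lung sums. Within clusters, an alternative added after the data were seen, Tnfrsf12a in alveolar macrophages and Tnfrsf11a in interstitial macrophages did not pass, and Tnfsf12 in interstitial macrophages turned to -0.053 in cluster 15 (adjusted p = 0.962, edgeR). Cd40 was tested in no cluster of alveolar macrophages, so that its call there was not checked within clusters. Member calls within classes, 10 higher and 7 lower, became 4 higher and 8 lower within clusters, and 15 higher and 11 lower with no filter on low counts. With 1 rat left out they ranged from 5 (without control replicate 1) to 9 higher and from 5 to 7 lower. Whole-lung calls, 6 higher and 4 lower, ranged from 3 (without control replicate 3) to 7 higher and from 1 to 3 lower with 1 rat left out, and 2 were lower with no filter. Calls of the signalling list, 15 higher and 7 lower, became 6 higher within clusters and 27 higher with no filter, and ranged from 7 (without BLM-treated replicate 2) to 14 higher and from 2 to 9 lower with 1 rat left out. Against the other classes, 0 higher and 1 lower calls became 0 lower at Leiden resolution 2.0, and ranged from 0 to 1 higher (1 without control replicate 2, Tnfrsf21 in smooth muscle cells or pericytes) and from 1 to 2 lower (2 without BLM-treated replicate 3, Fas in neutrophils being the other) with 1 rat left out. Tnfrsf1a in neutrophils had no finite estimate at resolution 2.0 or without control replicate 3, and passed in the other 9 fits. The cause of these changes was not tested. The pairs tested differ between these fits, and the share of all genes called in each is not given here. These counts therefore describe how far the calls depend on the fit and are no result about the members.

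The replicate numbers did not pair the rats. Deviations of same-numbered rats correlated at 0.102, -0.059 and -0.127. With the replicate number as a block, 7 members were higher and 5 lower within the classes that had all 6 rats. In whole-lung sums 6 were higher and 1 lower. The share of all genes called in these fits is not given here either. Precision was limited where control cells were few, as in fibroblasts (47 cells).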
